A study of Homo sapiens with 3 samples.

Results

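The genes described here are 10 protein-coding genes known to be imprinted in humans: PEG3, PEG10, MEST, NDN, MAGEL2, SGCE, PLAGL1, GRB10, NNAT and PHLDA2. They were chosen by symbol, through the Ensembl identifiers that GENCODE release 29 gives these names, and all 10 were found among 60660 genes of the deposited table. The data are 3 RNA-seq libraries of SH-SY5Y, an established human neuroblastoma cell line, grown in serum-containing medium. Each library came from its own flask at about 60% confluency, and the labels name no second cell line and no treatment. Genes can thus be set against each other inside a library, or against a fixed level.

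Imprinted genes are transcribed mainly from the copy inherited from a single parent. The choice is set by DNA methylation laid down in egg or sperm at control regions, and one such region can govern a cluster of genes. Many of these genes act in growth of the fetus and placenta, and several are strong in the developing nervous system. PEG3, PEG10, MEST, NDN, MAGEL2, SGCE, PLAGL1 and NNAT are known as paternally expressed and PHLDA2 as maternally expressed, while the active copy of GRB10 depends on tissue and promoter. FPKM, a read number divided by transcript length and by library depth, adds both copies, so the values below say nothing about which parental copy was read.

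Low FPKM values move in even steps, and the step size put the depth near 21600000, 28600000 and 43500000 reads for replicates 1, 2 and 3. Between 97.5% and 97.6% of low values lay within 0.1 of a whole read. The step was fitted to these same values, so the share describes the fit and does not test it. For a step fixed beforehand chance would give 20%. At these depths 3 reads on 1 kb of effective length correspond to 0.139, 0.105 and 0.0690 FPKM in replicates 1, 2 and 3. Of 9 marker genes of sympathetic neuroblasts 9 were called above 1 FPKM by limma, with a median of 376 FPKM. Of 14 markers of Schwann, immune, endothelial, fibroblast, epithelial and erythroid cells, 3 were called above, 6 below and 2 neither; the 3 were the fibroblast genes, with DCN at 14.7, COL1A1 at 3.79 and LUM at 3.95 FPKM. CD3E, CDH5 and HBB were listed at 0. In RNA from many cells, fewer cells of a type and less RNA per cell cannot be told apart.

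The sequences printed here belong to neighbouring genes with unlike levels and to the gene with the highest level. NDN and MAGEL2 lie beside each other on chromosome 15, and both had little RNA, whereas MKRN3 in the same cluster had more. Their RefSeq promoter windows (GRCh38.p14, 250 bases before to 50 after the start, 5′ to 3′ on the gene's strand) are shown with every CG pair, the unit of DNA methylation, in capitals. The NDN window is chr15:23687256-23687555, the MAGEL2 window chr15:23647818-23648117, both on the minus strand, and the MKRN3 window chr15:23565424-23565723 on the plus strand. The PLAGL1 window shown, chr6:144008210-144008509 on the minus strand, is 1 of 5 for this gene. It is also the window of the noncoding gene HYMAI, which had almost no RNA.
NDN: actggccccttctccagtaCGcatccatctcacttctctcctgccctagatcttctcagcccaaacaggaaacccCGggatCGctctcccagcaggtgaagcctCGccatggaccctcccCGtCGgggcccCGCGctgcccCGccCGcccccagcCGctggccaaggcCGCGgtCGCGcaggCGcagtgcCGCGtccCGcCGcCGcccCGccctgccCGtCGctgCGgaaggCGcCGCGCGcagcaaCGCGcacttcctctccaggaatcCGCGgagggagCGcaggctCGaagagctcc
MAGEL2: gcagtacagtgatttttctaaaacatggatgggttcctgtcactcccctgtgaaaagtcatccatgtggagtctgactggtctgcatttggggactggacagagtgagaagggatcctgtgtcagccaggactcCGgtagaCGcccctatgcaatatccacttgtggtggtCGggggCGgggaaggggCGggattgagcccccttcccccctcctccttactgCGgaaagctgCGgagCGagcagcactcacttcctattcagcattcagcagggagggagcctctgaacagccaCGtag
MKRN3: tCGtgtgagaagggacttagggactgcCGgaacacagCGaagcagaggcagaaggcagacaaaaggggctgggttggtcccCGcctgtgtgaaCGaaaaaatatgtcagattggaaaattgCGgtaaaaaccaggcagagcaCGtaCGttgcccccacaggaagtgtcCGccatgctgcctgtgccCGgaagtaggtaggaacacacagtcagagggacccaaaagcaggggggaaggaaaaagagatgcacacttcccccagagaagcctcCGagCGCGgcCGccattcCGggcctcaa
PLAGL1: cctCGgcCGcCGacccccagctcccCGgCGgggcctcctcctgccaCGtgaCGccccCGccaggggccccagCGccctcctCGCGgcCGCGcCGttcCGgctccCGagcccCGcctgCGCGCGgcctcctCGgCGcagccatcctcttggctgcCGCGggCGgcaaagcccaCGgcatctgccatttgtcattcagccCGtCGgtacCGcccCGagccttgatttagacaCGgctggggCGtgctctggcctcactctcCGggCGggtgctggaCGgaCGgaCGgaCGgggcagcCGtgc

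The window of NDN held 35 CG pairs, that of MAGEL2 9, that of MKRN3 15 and that of PLAGL1 and HYMAI 39, where the median of 35116 windows was 14. The hexamer TGCCGC, which the imprint-protecting protein ZFP57 binds when methylated, was searched on both strands; it occurred 1 time in the NDN window, 2 times in the PLAGL1 window and in neither of the other windows shown. RefSeq windows were matched for 5 of the 10 genes (PLAGL1, GRB10, MEST, MAGEL2 and NDN), 17 windows in all, some of them overlapping, and 7 held the hexamer. Over all windows 16.7% held it. The other PLAGL1 windows held 31, 3, 3 and 2 CG pairs and no hexamer, so the window shown is the richest of the 5. A consensus site of the factor YY1, searched on both strands, was in 0 of the 17 and in 1.44% of all windows.

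PEG10 descends from a retrotransposon and keeps its way of making a longer protein, a ribosomal slip by 1 base at the heptamer GGGAAAC. The stretch around it in a PEG10 transcript (chr7:94664483-94664542, plus strand, GENCODE release 29 on GRCh38) is shown with the heptamer in capitals. It starts at base 954 of a coding region annotated with 975 bases, and another transcript is annotated with a longer coding region of 2121.
PEG10: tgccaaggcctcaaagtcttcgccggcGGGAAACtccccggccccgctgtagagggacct

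The 10 genes fell into 6 called above 1 FPKM and 4 called below, with limma's Benjamini-Hochberg adjusted p under 0.05, and none between. PEG10, SGCE and NNAT were the highest, PEG3, PLAGL1 and MEST were intermediate, and NDN, PHLDA2, GRB10 and MAGEL2 were low or close to absent. Among all 31736 genes tested 45.5% were called above and 43.7% below, and among 16750 protein-coding genes tested 70.6% were called above and 24.6% below. The 6 of 10 called above and 4 of 10 called below are best read against the shares of protein-coding genes. With 10 genes no departure from those shares is claimed. The same shares stand beside the lists of coding genes below, and no departure is claimed for any list. The median of the 10 means was 4.39 FPKM, beside 9.13 FPKM for protein-coding genes tested and 1.08 FPKM for all genes tested. PEG10 alone held 57.4%, 52.9% and 56.3% of the summed FPKM of the 10 genes in replicates 1, 2 and 3.

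**Figure D1:**
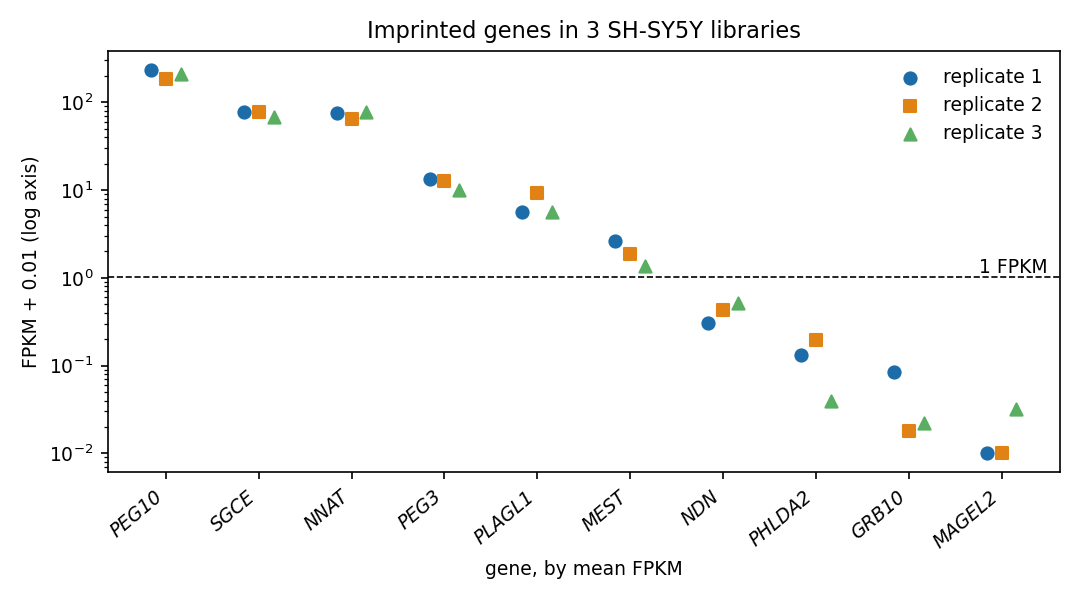
FPKM + 0.01 of each gene on a log axis, with genes ordered by mean from left to right and 1 point per library; the dashed line marks 1 FPKM. All points of PEG10 to MEST lie above the line and all points of NDN to MAGEL2 below it, and MAGEL2 was listed at 0 in replicates 1 and 2.

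PEG10 (ENSG00000242265, chromosome 7, 94656325 to 94669695, plus strand) encodes a Gag-like protein needed for placenta formation in the mouse. It stood at 234, 187 and 211 FPKM in replicates 1, 2 and 3, a mean of 211 ± 23.7 (SD, n = 3). Replicate 2 was the lowest and replicate 1 the highest, and 97.8% of protein-coding genes had a lower mean. On the log2 scale it lay 7.58 above the level (SE 0.0980, limma adjusted p = 2.99e-05).

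SGCE (ENSG00000127990, chromosome 7, 94524204 to 94656572, minus strand) encodes epsilon-sarcoglycan, a membrane protein whose loss causes myoclonus-dystonia. Its values were 76.9, 77.1 and 68.0 FPKM, with a mean of 74.0 ± 5.20 (SD, n = 3). Replicates 1 and 2 were nearly equal and replicate 3 was lower. The log2 distance above the level was 6.07 (SE 0.0797, limma adjusted p = 2.99e-05), and 92.1% of protein-coding genes had a lower mean.

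SGCE and PEG10 are read in opposite directions from a shared start region, where their annotated genes overlap by 248 bases. PEG10 exceeded SGCE in 3 of 3 libraries, by a log2 difference of 1.61, 1.28 and 1.63 within replicates 1, 2 and 3. The mean difference was 1.50 ± 0.20 (SD, n = 3, exact two-sided sign-flip p = 0.25, the smallest that 3 libraries allow), a ratio of mean FPKM of 2.85. SGCE also overlaps CASD1 on the other strand over 32816 bases, and CASD1 stood lower at 30.2 ± 3.45 FPKM. No source used here states whether counting used the strand, so values of overlapping genes on opposite strands are uncertain.

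Around this pair the other genes of the cluster were mixed. TFPI2, which encodes a serine protease inhibitor of the extracellular matrix, had 68.3, 62.0 and 58.4 FPKM, and PPP1R9A, a neuronal actin-binding protein gene, had 6.76, 7.36 and 6.13. The calcitonin receptor gene CALCR was called below 1 FPKM at 0.0423 ± 0.0332. COL1A2, a collagen gene and the nearest coding gene before SGCE that it does not overlap, averaged 0.921 ± 0.475 FPKM and received no call.

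NNAT (ENSG00000053438, chromosome 20, 37521206 to 37523693, plus strand) encodes neuronatin, a small membrane proteolipid of the developing brain that resembles regulators of calcium pumps. It had 74.9, 64.6 and 78.1 FPKM, with a mean of 72.5 ± 7.07 (SD, n = 3), and replicate 2 was the lowest. The log2 distance above the level was 6.04 (SE 0.0917, limma adjusted p = 3.01e-05). SGCE and NNAT did not differ beyond their spread: the log2 difference of SGCE minus NNAT was 0.03 ± 0.23, their libraries overlapped, and the sign was not the same in all 3.

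NNAT lies inside an intron of BLCAP, which is read from the other strand and encodes a small protein linked to apoptosis. NNAT exceeded BLCAP in 3 of 3 libraries, with a log2 difference of 1.74 ± 0.10 (exact p = 0.25) and means of 72.5 FPKM for NNAT and 21.5 ± 0.869 for BLCAP. Both neighbours outside the host gene were also called above 1 FPKM, the kinase gene SRC at 52.8 ± 2.63 and CTNNBL1 at 33.7 ± 1.57. Of 8 calcium pump and pump regulator genes in the table, 4 were called above 1 FPKM, 3 below and 1 was listed at 0. The pump gene ATP2A2 had 81.5 ± 3.38 FPKM and the regulator gene C4orf3 33.7 ± 1.65, while phospholamban (PLN, 0.0260 FPKM in replicate 1 and 0 in the other two) was called below and sarcolipin (SLN) was listed at 0.

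PEG3 (ENSG00000198300, chromosome 19, 56810077 to 56840728, minus strand) encodes a zinc finger protein that binds SIAH1 and TRAF2 and influences apoptosis and maternal behaviour in the mouse. Its values were 13.5, 12.7 and 10.1 FPKM, a mean of 12.1 ± 1.78 (SD, n = 3), with replicate 3 the lowest. It lay 3.46 above the level on the log2 scale (SE 0.119, limma adjusted p = 0.000121). ZIM2, a zinc finger gene that shares first exons with PEG3 on the same strand, had 0.976, 0.712 and 0.199 FPKM and was called neither. PEG3 exceeded ZIM2 by 4.24 ± 0.75 (log2, exact p = 0.25) in 3 of 3 libraries. Since they share exons, how reads were split between them is uncertain. USP29, the next coding gene after PEG3, was listed at 0.

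PLAGL1 (ENSG00000118495, chromosome 6, 143940300 to 144064599, minus strand) encodes a zinc finger transcription factor that slows the cell cycle and, in the mouse, regulates other imprinted genes. It had 5.64, 9.32 and 5.55 FPKM, with a mean of 6.84 ± 2.15 (SD, n = 3). Replicate 2 stood apart from the other two, which were nearly equal. The log2 distance above the level was 2.61 (SE 0.200, limma adjusted p = 0.00104), and 2.37 without replicate 2 (limma adjusted p = 0.00252).

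HYMAI, the noncoding gene inside PLAGL1 whose promoter window is printed above under PLAGL1, had 0.0150, 0 and 0.0520 FPKM and was called below. PLAGL1 and its relative PLAGL2 did not differ beyond their spread, with a log2 difference of 0.26 ± 0.46 (exact p = 0.75). That difference turned to -0.0060 without replicate 2, the library in which PLAGL1 was high. PLAG1, the oncogene of the family, was called below at 0.0427 ± 0.0298 FPKM, and PLAGL1 exceeded it by 5.58 ± 0.63 (log2) in 3 of 3 libraries.

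MEST (ENSG00000106484, chromosome 7, 130486171 to 130506465, plus strand) encodes a hydrolase-fold protein of mesoderm and growing fat tissue and hosts the microRNA gene MIR335. It had 2.62, 1.86 and 1.35 FPKM, a mean of 1.94 ± 0.642 (SD, n = 3), so that replicate 1, the highest, was 1.95 times replicate 3, the lowest. On the longest transcript of 2505 bases these values would be about 130, 123 and 135 reads. The FPKM fell as library depth rose, and a link with depth was not tested. MEST was called above 1 FPKM (log2 0.85, SE 0.216, limma adjusted p = 0.0293). The call was lost without replicate 1 (limma adjusted p = 0.0630), without replicate 2 (0.135), with no filter on low values (0.0679) and after rescaling to TPM (log2 0.38, 0.157).

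COPG2, a coat protein gene read from the other strand, overlaps the end of MEST by 228 bases and had 37.1 ± 0.884 FPKM. MEST lay below COPG2 by a log2 difference of -4.24 ± 0.48 (exact p = 0.25) in 3 of 3 libraries. With the strand setting unknown, the part of COPG2 reads in the value of MEST was not tested. The antisense gene MESTIT1 had 0.0507 ± 0.0146 FPKM and was called below, MIR335 was listed at 0, and so was KLF14, an imprinted transcription factor gene of the same region. The mRNA libraries measured here do not capture mature microRNAs.

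NDN (ENSG00000182636, chromosome 15, 23685400 to 23687330, minus strand) encodes necdin, a MAGE family protein of postmitotic neurons that restrains growth and is lost in Prader-Willi syndrome. It had 0.294, 0.424 and 0.503 FPKM, a mean of 0.407 ± 0.106 (SD, n = 3), all below the level. With 1931 exonic bases these values correspond to about 11, 21 and 37.9 reads, so NDN RNA was detected in every library. Its log2 distance was -1.14 (SE 0.155, limma adjusted p = 0.00519).

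MAGEL2 (ENSG00000254585, chromosome 15, 23643549 to 23647867, minus strand) encodes a MAGE protein that works with the ligase TRIM27 and the protease USP7 in retromer-dependent recycling of endosomes, and its truncation causes Schaaf-Yang syndrome. It was listed at 0 in replicates 1 and 2 and at 0.0220 FPKM in replicate 3, about 3.94 reads. On its 4319 exonic bases 3 reads would correspond to 0.0338, 0.0255 and 0.0167 FPKM in replicates 1, 2 and 3. The gene was called below (log2 -3.36, SE 0.0988, limma adjusted p = 8.46e-05). MAGEL2 lay below NDN in 3 of 3 libraries, by -2.22 ± 0.22 with a pseudocount of 0.1 (exact p = 0.25). The size rests on the pseudocount, at -0.48 with 1 and -4.79 with 0.01.

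The cluster on chromosome 15 that holds NDN and MAGEL2 spanned a wide range of levels. SNRPN, a splicing protein gene known as paternally expressed like NDN, had 81.7, 83.0 and 87.5 FPKM. In 3 of 3 libraries NDN lay below SNRPN, with a log2 difference of -7.40 ± 0.27 (exact p = 0.25), a ratio of means of 207 for SNRPN over NDN. MKRN3, a ubiquitin ligase gene that restrains puberty, had 4.41, 3.79 and 4.65 FPKM. MAGEL2 lay below it by -5.35 ± 0.12 (log2, exact p = 0.25). This size too rests on the pseudocount, at -2.39 with 1 and -8.18 with 0.01.

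SNURF, which shares its RNA with SNRPN, had 50.4 ± 8.29 FPKM and the snoRNA host gene SNHG14 15.8 ± 1.89, both called above. SNURF lies within SNRPN on the same strand. How reads were split between them is uncertain, and so is the size of the ratio of SNRPN over NDN. UBE3A, the ubiquitin ligase gene of Angelman syndrome, had 79.8 ± 3.60 FPKM and overlaps SNHG14 on the other strand. Called below with NDN and MAGEL2 was NPAP1 at 0.0150 ± 0.00361 FPKM. So were PWRN1, with 0, 0.0280 and 0.0740 FPKM in replicates 1, 2 and 3, and ATP10A, with 0.0590, 0 and 0.0300. In genome order the listed imprinted genes from MAGEL2 to NPAP1 lay below 1 FPKM, with MKRN3 before them and SNRPN after them above it.

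**Figure D2:**
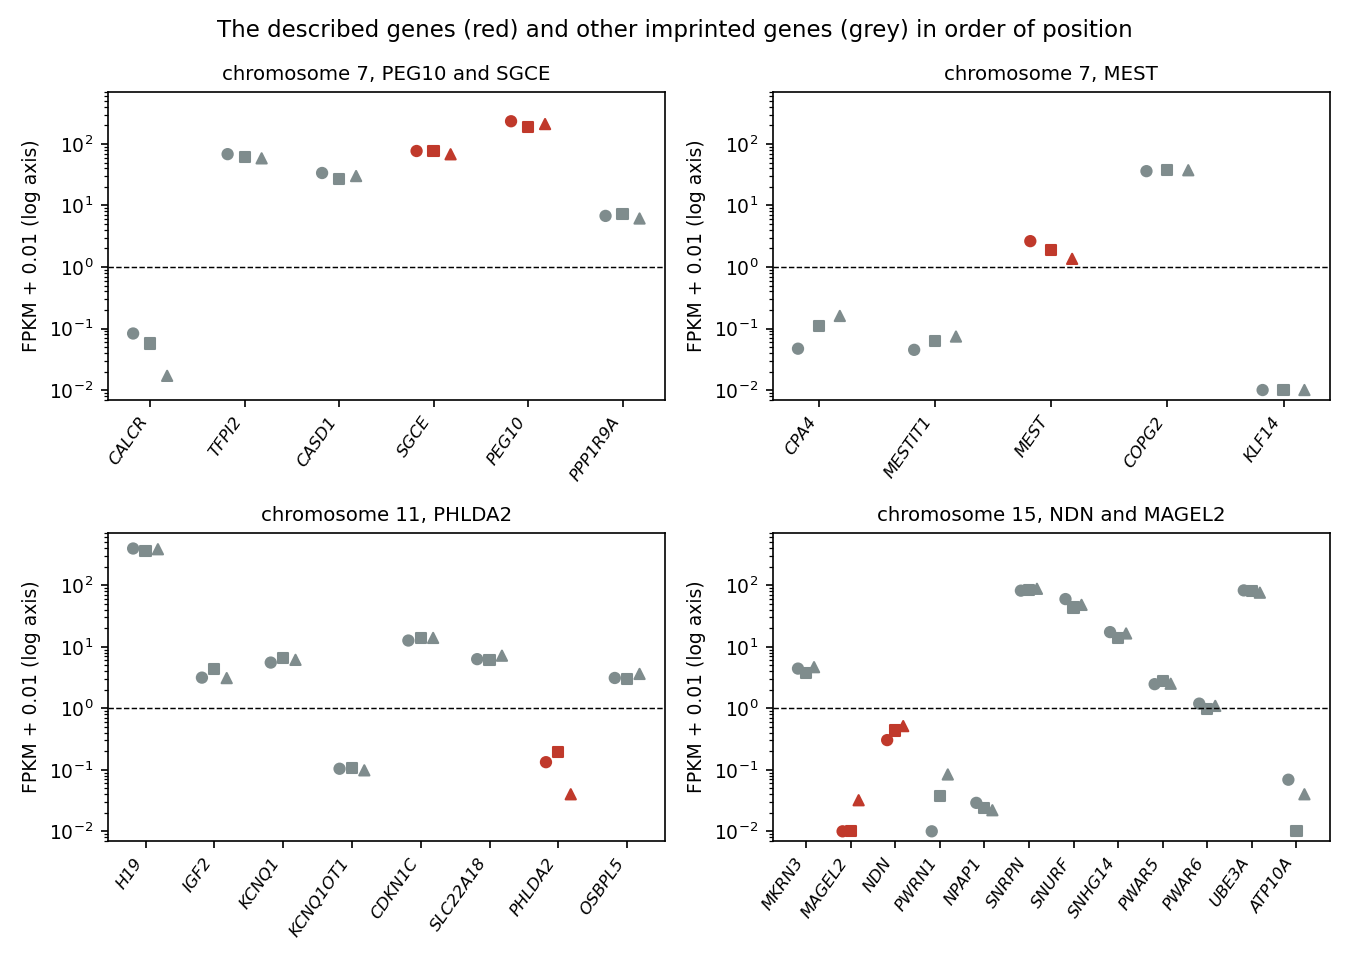
FPKM + 0.01 (log axis) for genes listed as imprinted within 2.5 Mb of PEG10 and SGCE, MEST, PHLDA2, and NDN and MAGEL2. Genes are in order of position along the chromosome, with 1 point per library (circle, square and triangle for replicates 1, 2 and 3). On chromosome 15 the points from MAGEL2 to NPAP1 lie below the dashed line at 1 FPKM and those of SNRPN, SNURF, SNHG14 and UBE3A lie above 10 FPKM; on chromosome 11 PHLDA2 lies below SLC22A18 and OSBPL5.

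Relatives and partners of the MAGE proteins were measured as a list. Of 9 other type II MAGE genes, whose median was 13.6 FPKM, 6 passed the test above the level and 3 below it. MAGED1, whose protein takes part in neurotrophin receptor signalling, had 229 ± 13.9 FPKM and MAGED2 210.4 ± 3.73. NDN lay below MAGED1 by -8.84 ± 0.32 (log2) in 3 of 3 libraries. MAGED4 and MAGED4B, called below, are near-identical copies with uncertain values. All 15 genes of the MAGEL2 partners and the WASH and retromer complexes were called above, among them USP7 at 154 ± 6.78, VPS35 at 70.4 ± 2.84 and TRIM27 at 39.5 ± 1.27 FPKM.

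PHLDA2 (ENSG00000181649, chromosome 11, 2928273 to 2929455, minus strand) encodes a small lipid-binding protein that limits growth of the placenta. It had 0.123, 0.186 and 0.0300 FPKM, a mean of 0.113 ± 0.0785 (SD, n = 3), which correspond to about 2.00, 4.01 and 0.985 reads. Replicate 3, the deepest library, was the lowest. Only replicate 2 reached the 3-read floor of this gene, which was 0.184, 0.139 and 0.0913 FPKM in replicates 1, 2 and 3. Counts this small cannot separate the libraries. It was called below (log2 -2.44, SE 0.271, limma adjusted p = 0.00290).

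In the cluster of PHLDA2 the maternally expressed cell cycle inhibitor gene CDKN1C had 12.6, 13.8 and 13.9 FPKM and the transporter gene SLC22A18 had 6.28, 6.08 and 7.15. PHLDA2 lay below CDKN1C by -6.06 ± 0.61 and below SLC22A18 by -5.03 ± 0.70 (log2, exact p = 0.25 each) in 3 of 3 libraries. These sizes rest on the pseudocount. With 1 they were -3.70 and -2.75, and with 0.01 they were -7.05 and -6.00. NAP1L4, a histone chaperone gene on the other side, had 163 ± 10.3 FPKM. Farther along the same chromosome the noncoding RNA gene H19 had 396, 362 and 385 FPKM, and IGF2, the fetal growth factor gene of that region, had 3.14, 4.37 and 3.09. KCNQ1OT1, the long noncoding RNA of the cluster's control region, had 0.0927 ± 0.00416 FPKM and was called below. Its annotated gene runs from 2608328 to 2699994, far longer than PHLDA2, so a like FPKM can stand for many more reads.

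Within its own family PHLDA2 did not differ from PHLDA1 beyond the spread (log2 difference 0.19 ± 0.53, exact p = 0.75), and the difference was -0.07 without replicate 2. PHLDA1 was also called below, at 0.0780 ± 0.0131 FPKM. PHLDA3, a p53 target that opposes AKT, had 22.6 ± 2.22 FPKM, and PHLDA2 lay below it by -6.80 ± 0.59 in 3 of 3 libraries. With a pseudocount of 1 that difference was -4.40, and with 0.01 it was -7.79.

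GRB10 (ENSG00000106070, chromosome 7, 50590063 to 50793462, minus strand) encodes an adaptor that binds the insulin and IGF receptors and dampens their signal. It had 0.0750, 0.00800 and 0.0120 FPKM, a mean of 0.0317 ± 0.0376 (SD, n = 3). Even if all its RNA were the longest transcript of 5431 bases, these values would be 8.45, 1.19 and 2.73 reads, and only replicate 1 passed the 3-read floor of 0.0266 FPKM in that library. It was called below (log2 -3.10, SE 0.187, limma adjusted p = 0.000539), and also without replicate 1 (log2 -3.32, limma adjusted p = 0.00135).

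The related adaptor gene GRB14 had 2.67, 3.77 and 3.18 FPKM, and GRB10 lay below it by -4.67 ± 0.61 (log2, exact p = 0.25) in 3 of 3 libraries. GRB7, the other member of the adaptor family, was listed at 0. The genes of receptors that GRB10 binds were called above, IGF1R at 14.5 ± 1.07 and INSR at 7.26 ± 0.940 FPKM. Of 13 genes of this list 11 were called above and 2 were listed at 0, GRB7 and IRS4. Next to GRB10 on the same strand lies DDC, the enzyme gene that makes dopamine from L-DOPA, with 61.1, 42.4 and 54.3 FPKM. COBL, an actin nucleator gene on the other side, had 0.101 ± 0.0435 FPKM and was called below.

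The order of the means was PEG10, SGCE, NNAT, PEG3, PLAGL1, MEST, NDN, PHLDA2, GRB10 and MAGEL2. Libraries of neighbours in this order overlapped for SGCE with NNAT, PHLDA2 with GRB10 and GRB10 with MAGEL2. In the other 6 neighbouring pairs the lowest library of the higher gene lay above the highest of the lower. The narrowest of these was PEG3 over PLAGL1, with a log2 difference of 0.84 ± 0.40 and 10.1 FPKM in the lowest library of PEG3 beside 9.32 in the highest of PLAGL1.

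Of 20 gene pairs, 18 had a single sign in 3 of 3 libraries. The 18 include GRB10 minus GRB7, whose sign could only be positive because GRB7 was listed at 0. Each of these 18 had exact p = 0.25 (0.278 after Benjamini-Hochberg adjustment over the 20), the smallest that the test can give, so none passed the threshold. Where a gene lay below 1 FPKM the size rests on the pseudocount, as for GRB10 minus GRB14 at -2.02 with 1 and -6.62 with 0.01. PEG10 exceeded RTL8C, another gene of retrotransposon origin, by 1.22 ± 0.18 (log2) and RTL1 by 1.38 ± 0.17. SGCE exceeded SGCB, the beta-sarcoglycan gene, by 1.05 ± 0.07, and the difference was narrow in all libraries, at 1.09, 1.09 and 0.97.

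**Figure D3:**
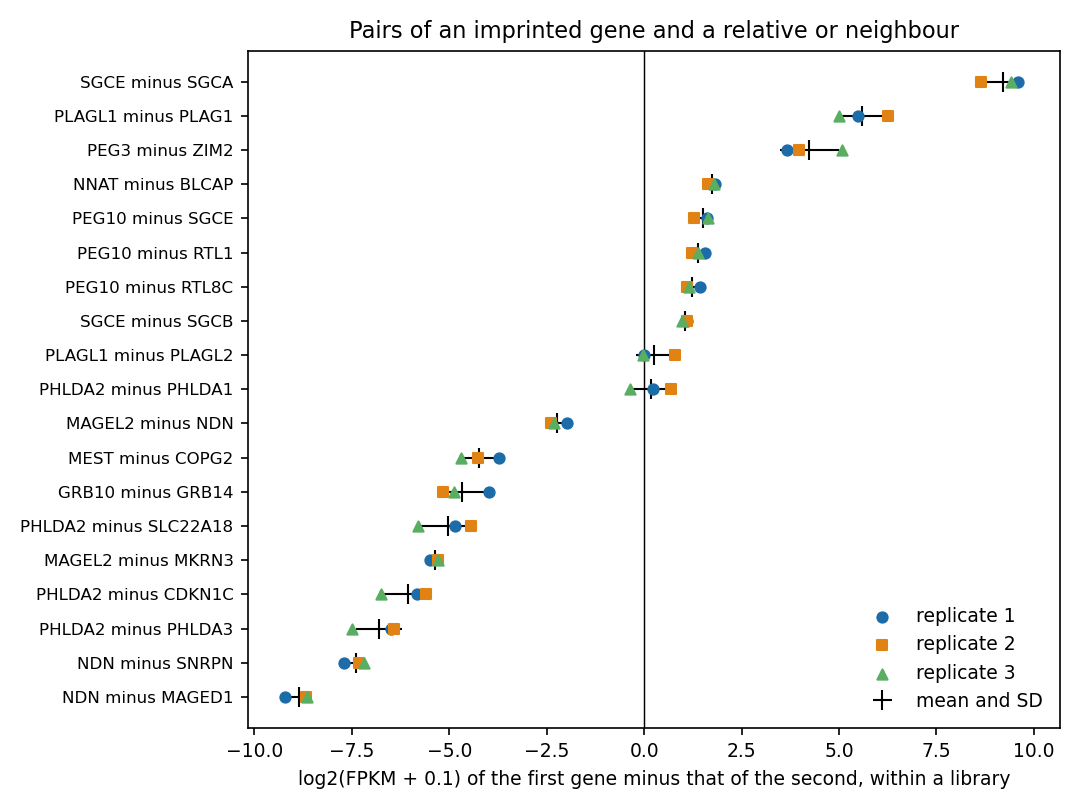
Log2(FPKM + 0.1) of the first gene minus that of the second within each library, for 19 pairs, with 1 point per library and the mean and SD in black; the pair of GRB10 and GRB7 is left out because GRB7 was listed at 0. Points of PLAGL1 minus PLAGL2 and of PHLDA2 minus PHLDA1 lie on both sides of 0, and those of every other pair shown lie on 1 side.

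Sarcoglycans form a membrane complex with dystroglycan and dystrophin, in which epsilon-sarcoglycan can take the place of SGCA. SGCA had 0, 0.0930 and 0 FPKM, and SGCZ was listed at 0. SGCB stood at 35.6 ± 0.806 FPKM and the dystroglycan gene DAG1 at 17.6 ± 1.28. The dystrobrevin gene DTNB had 45.8 ± 4.64, and TOR1A, whose protein is linked to another inherited dystonia, had 25.3 ± 1.06. Of the 14 genes of this list 8 were called above, 3 below and 2 neither.

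Among 22 genes of retrotransposon-derived Gag proteins, the wider family of PEG10, 16 were called above 1 FPKM and 2 below. Their median was 9.86 FPKM, and the highest were RTL8C at 89.7 ± 4.35, RTL1 at 80.4 ± 0.746, RTL8A at 71.4 ± 2.62 and PNMA2 at 63.02 ± 2.01. RTL8A, RTL8B and RTL8C are close copies, and reads may have been split among them. RTL3 and PNMA5 were listed at 0. The 16 of 22 called above stand beside 70.6% of protein-coding genes tested. All 15 genes on the list of PEG3 and NDN partners were called above, SIAH1 at 16.8 ± 2.82 and TRAF2 at 9.95 ± 1.45 FPKM among them.

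Another 41 coding genes were listed here as imprinted, a status not examined in these data. Of these 41 genes 29 were called above 1 FPKM, 7 below, 1 neither (ZIM2), and 4 were listed at 0. Their median was 7.35 FPKM, and the 29 stand among 37 that could be tested. Of all protein-coding genes tested 70.6% were called above and 24.6% below, and no departure from those shares is claimed. GNAS, which encodes a stimulatory G protein subunit, was highest at 1916 ± 68.6 FPKM, followed by DLK1 at 109 ± 17.5 and SNRPN. Of 15 imprinted noncoding genes 3 passed the test above the level (H19, SNHG14 and PWAR5) and 10 below it, and their median was 0.208 FPKM. H19 was the highest, and MEG3, the noncoding partner of DLK1, was called below at 0.159 ± 0.0753 FPKM. The share called above among all noncoding genes was not computed. It lies below that of coding genes, since all genes tested had 45.5% above and protein-coding ones 70.6%. The 3 of 15 are therefore not read as a trait of imprinted genes.

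Of 22 genes that set, protect or erase imprints 17 were called above 1 FPKM, 1 below and 4 were listed at 0. TRIM28, the corepressor that imprint-reading zinc finger proteins recruit, had 594 ± 22.0 FPKM, and DNMT1, the maintenance DNA methyltransferase gene, had 163 ± 16.3. ZFP57, the zinc finger protein whose hexamer was searched above, was listed at 0 in 3 of 3 libraries, while ZNF445, which acts beside it, had 7.97, 8.57 and 8.31 FPKM. DNMT3L, NLRP5 and NLRP7, genes of the germline and egg, were listed at 0 as well. The 17 of 22 called above stand beside 70.6% of protein-coding genes tested.

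**Figure D4:**
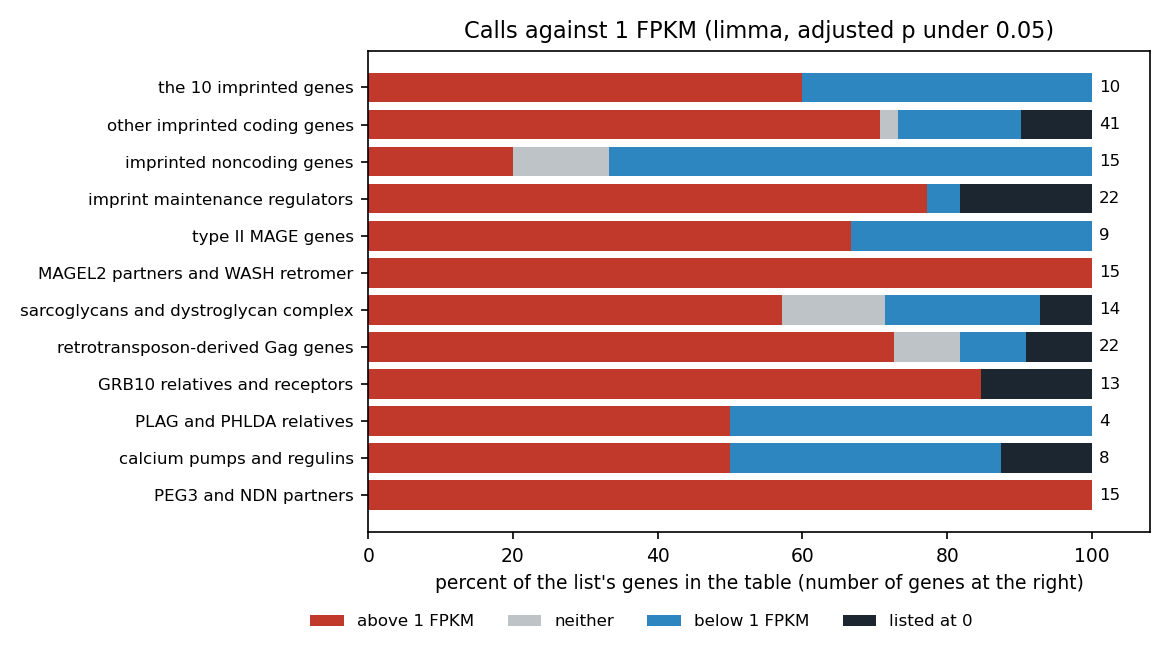
Percent of each list's genes called above 1 FPKM, neither, below 1 FPKM, or listed at 0 (limma, adjusted p under 0.05), with the number of genes in the table at the right. The 10 imprinted genes have 6 above and 4 below, the other imprinted coding genes 29 of 41 above, and the noncoding ones 3 of 15. Over the whole series 70.6% of protein-coding genes tested and 45.5% of all genes tested were called above.

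The genes also differed in how far the 3 flasks spread. Among protein-coding genes of a like mean level, PLAGL1 had a larger SD of log2 values than 96.0% and PEG10 than 90.6%, at 0.42 and 0.16. PEG3 (0.22) stood at 89.6%, MEST (0.46) at 84.9% and NNAT (0.14) at 81.0%. SGCE (0.10), PHLDA2 (0.58) and NDN (0.31) stood at 60.9%, 71.5% and 49.2%. Among the 6 genes called above 1 FPKM, replicate 2 had the lowest value of PEG10 and NNAT and the highest of SGCE and PLAGL1. Replicate 3 had the lowest value of SGCE, PEG3, PLAGL1 and MEST.

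**Figure D5:**
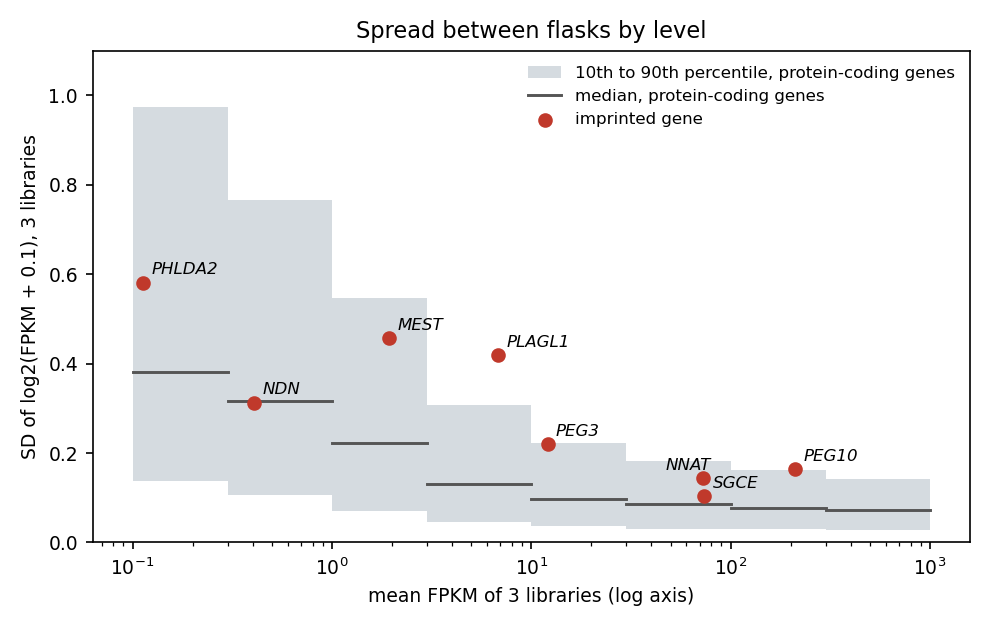
SD of log2(FPKM + 0.1) over 3 libraries against mean FPKM on a log axis, for the 8 genes whose mean reached 0.1 FPKM; grey bands run from the 10th to the 90th percentile of protein-coding genes of that level and dark lines mark their medians. PLAGL1 and PEG10 lie above their bands, and NDN lies at its median.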

How the data were processed

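The authors deposited 1 FPKM value per gene and library for 60660 Ensembl identifiers; per the labels' protocols, the stranded mRNA libraries were read as 50 base pair single reads. Among tools, the submitters' processing notes list Cufflinks 2.2.1, TopHat2 2.1.1, FastQC 0.10.1 and bcl2fastq, with the assembly hg38. Their settings, the annotation release and the strand setting were not given in the sources used here.

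Identifiers were matched to GENCODE 29 on GRCh38 (57046 matched), and of identifiers sharing a name the one with the highest mean was kept. The genes described, the lists and the pairs were chosen with earlier results of these data known. MCTS2P was placed among the coding genes, by its annotated type, after its value was seen. Genes above 0 in at least 1 library and with a value in at least 2 were tested on log2(FPKM + 0.1) against 1 FPKM (limma 3.58.1, R 4.3.3; intercept only, two-sided, Benjamini-Hochberg over 31736 genes, called at 0.05). On that scale low genes lie nearer to the level than they do in FPKM. Pairs were compared within libraries by an exact two-sided sign-flip test. Read estimates and floors assume fragments of 200 bases and cover counting error only. Promoter windows came from RefSeq; protein sequences were not used here. A gene left out of the lists is not reported here. Named by rule were the 10 genes, the genes of the pairs, overlapping and nearest genes, the other imprinted genes and imprint regulators, and the 4 highest and 2 lowest of each other list; TRIM27, SIAH1, TRAF2, IGF1R, INSR and markers listed at 0 were named after their values were seen. Alternatives were pseudocounts of 1 and 0.01, 2 other filters, 3 rescalings, levels of 0.5 and 5 FPKM, and each library left out. Other steps ran in Python 3.11.15 (matplotlib 3.10.9, scipy 1.17.1, pandas 2.3.3, numpy 2.4.6).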

Additional observations from a re-analysis of the deposited data

How the results depend on the processing

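The number of the 10 genes called above 1 FPKM was 5 or 6 in each alternative that kept this level, also with a library left out. It was 6 against 0.5 FPKM and 4 against 5 FPKM. The number called below was 4, and 2 where a mean of at least 0.1 FPKM was required, since GRB10 and MAGEL2 were then not tested. It was 3 against 0.5 FPKM, 5 against 5 FPKM, and 3 to 4 with a library left out; MAGEL2, listed at 0 in both remaining libraries, could not be tested without replicate 3. Of 117 values of single genes 110 kept both direction and call. The 6 that kept the direction and lost the call were MEST in the 4 alternatives given above, PLAGL1 against 5 FPKM (log2 0.40, limma adjusted p = 0.138) and NDN against 0.5 FPKM (log2 -0.26, 0.196), and MEST turned to -1.37 against 5 FPKM. Before the pseudocount was added, rescaling to TPM shifted all genes by -0.47, -0.54 and -0.46 (log2) in replicates 1, 2 and 3. The shifts were 0.33, 0.33 and 0.32 when mitochondrial genes were left out first. With the pseudocount low genes moved less. Under rescaling to TPM the log2 distance of MAGEL2 went from -3.36 to -3.39 and that of PEG10 from 7.58 to 7.08. Calls below 1 FPKM among all genes, 13853 as reported, were 5921 with a mean of at least 0.1 FPKM required and 40037 with no filter, where fewer or more low genes were tested. Calls above among all genes lay between 13720 and 14905 in the alternatives that kept 1 FPKM. They were 15939 against 0.5 FPKM and 10429 against 5 FPKM. Among the other imprinted coding genes 29 were called above in each alternative except the level of 5 FPKM, which gave 25. Of 152 pair values 125 moved by less than the SD and 25 by more, 21 of these with another pseudocount, and 2 changed sign without replicate 2. With a library left out PLAGL1 minus PLAGL2 ranged between -0.0060 and 0.397 and PHLDA2 minus PHLDA1 between -0.0684 and 0.458. No paired comparison between groups was possible because the series has 1 group. Depth limits PHLDA2, GRB10 and MAGEL2, whose values rest on few reads.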
